A study of Mus musculus with 16 samples.

Results

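The short non-coding RNAs described here were measured in fetal mouse cortex: Bc1, the Y RNAs Rny1 and Rny3, the spliceosomal Rnu12, the RNase MRP RNA Rmrp and the 7SK RNA Rn7sk. Of these 6 listed members, 5 had a matching row among the 55359 gene IDs counted, and 4 had any counts. No row matched Rn7sk, which is not analysed here. Rmrp was listed at 0 in all 16 libraries, so the measurements below concern Bc1, Rny1, Rny3 and Rnu12. The members were chosen by their CPM per library across exposure groups and sexes, with earlier results of these data known, so every difference between groups of these 4 RNAs is given as a description, without a test. Counts of them among the called genes stand beside the share of all genes called, and nothing is read from those counts.

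The samples were total RNA of fetal cortex at gestational day 16, sequenced in 16 libraries. The 8 groups, of 2 libraries each, combined the sex of the fetus with 4 parental backgrounds: both parents exposed (dual), the mother exposed (maternal), the father exposed (paternal) and neither exposed (control). The series' title gives the exposure as alcohol. The sources used here do not give its dose, route or timing, the mouse strain, or whether the libraries of a group came from separate fetuses or litters. The p-values therefore reflect the scatter among these libraries, part of which may be technical.

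Short structured RNAs of this kind work as parts of ribonucleoprotein particles. Bc1 is a rodent RNA that arose from a tRNA gene, is made by RNA polymerase III mainly in neurons, is carried into dendrites and represses the start of translation. Y RNAs, also made by RNA polymerase III, bind the Ro60 protein and, at their 3′ end, the La protein. Rnu12 is the U12 RNA of the minor spliceosome, which pairs with the branch site of a rare class of introns. Rmrp is the RNA of an RNase that acts on precursor ribosomal RNA, and Rn7sk holds the elongation factor P-TEFb inactive.

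The sequences of the 4 measured RNAs are shown for their length, their 3′ ends and the extent to which they share sequence. Whether these features affected how the RNAs were counted was not tested. All are the GENCODE M21 transcripts of the GRCm38 mouse reference, 5′ to 3′, in DNA letters. Capitals mark a run of 23 A in Bc1, the last 4 T of each Y RNA, and the site for Sm proteins in Rnu12.
Bc1: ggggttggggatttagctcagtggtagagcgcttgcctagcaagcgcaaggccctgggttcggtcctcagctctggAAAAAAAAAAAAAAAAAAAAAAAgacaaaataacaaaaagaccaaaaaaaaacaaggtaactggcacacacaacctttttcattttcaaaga
Rny1: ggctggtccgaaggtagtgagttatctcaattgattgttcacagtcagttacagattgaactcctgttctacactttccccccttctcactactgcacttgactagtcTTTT
Rny3: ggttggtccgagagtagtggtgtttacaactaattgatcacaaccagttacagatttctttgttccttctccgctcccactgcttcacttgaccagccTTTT
Rnu12: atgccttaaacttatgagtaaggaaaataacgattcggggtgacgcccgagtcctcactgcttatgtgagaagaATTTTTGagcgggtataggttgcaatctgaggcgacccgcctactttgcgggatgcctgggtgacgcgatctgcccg

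Bc1 measured 168 nucleotides, Rnu12 151, Rny1 112 and Rny3 102. In the reference Bc1 lies on chromosome 7, Rny1 and Rny3 lie near each other on opposite strands of chromosome 6, and Rnu12 lies on chromosome 15. No annotated gene overlapped any of the 4. Rny1 and Rny3 shared 80 of 112 aligned positions, an identity of 71.4%. No other pair exceeded 42.9%, the value for Rnu12 and Rny1. GC content was 40.5% in Bc1, 43.8% in Rny1, 45.1% in Rny3 and 51.7% in Rnu12.

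Short motifs were searched on the transcript strand, with 19566 annotated transcripts of at most 400 nucleotides as comparison. A run of 4 T at the very end of the annotated transcript (TTTT), where La binds, occurred in Rny1 and Rny3 and in 2.9% of these short transcripts. The Sm site, searched as ATTTNTG, occurred in Rnu12 from position 75 and in 8.6% of them. A run of at least 12 A, searched after the sequence of Bc1 had been seen, occurred in Bc1 from position 77 and in 0.3% of them. None of the 3 motifs was found in another of the 4 RNAs than those named. The run of 4 T was searched only at the annotated end, and Bc1 has runs of T shortly before its own.

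Features of the libraries that moved with the short RNAs are given before them. Depth separated the sexes: a male library held 15336566 to 19966696 counts and a female one 26134287 to 35218456. The mitochondrial ribosomal RNA mt-Rnr1 was at 248 to 10300 CPM (counts scaled to the summed counts of a library) in males and at 8.66 to 35.4 CPM in females. The lowest male value was that of male control replicate 1, and the next lowest was 3433 CPM. The female dual libraries stood apart in another measure: 0.872% and 0.86% of their counts fell on genes of the classes TEC (unverified transcribed regions) and sense-intronic, compared with 0.325% to 0.391% for the remaining females and 0.28% to 0.534% for males. Malat1, a long non-coding RNA of the nucleus, measured 5667 and 5843 CPM in these female dual ones, with 2701 to 3839 CPM in the other female and 2842 to 5037 CPM in the male libraries. Blood markers (all 6 measured) summed to 364 and 367 CPM in the female dual libraries and to 530 to 865 CPM in the other female ones. Microglia markers (all 5) summed to 21.8 and 31.2 CPM in the female dual libraries and to 36.3 to 47.8 CPM in the other female ones, while endothelial and meningeal sums overlapped. The part of Malat1 and of these cell types in the values below was not tested. The labels name 1 library kit for all samples and no batch, so sex, depth and any difference in library preparation cannot be told apart. All 16 markers of cortical neurons and progenitors were measured, with a summed level of 9256 to 10530 CPM across the libraries.

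Bc1 was the member that separated the sexes most. Levels below are CPM after TMM scaling, which adjusts summed counts so that most genes keep their level. Bc1 was at 50.4 and 51.5 CPM in the male dual libraries, 62.2 and 54.0 CPM in the male maternal ones, 52.1 and 51.9 CPM in the male paternal ones, and 35.5 and 40.1 CPM in the male control ones. Female dual libraries had 3.77 and 4.204 CPM of Bc1, with 1.998 and 1.63 CPM in the female maternal ones, 2.85 and 1.72 CPM in the female paternal ones, and 0.633 and 1.16 CPM in the female control ones. Every male library was above every female library, and within each sex both control libraries were the lowest. The male libraries averaged 49.7 ± 8.29 CPM and the female libraries 2.25 ± 1.25 CPM (SD, n = 8 each). Raw counts of Bc1 were 673 to 1020 per male library and 21 to 118 per female library, so the female values rest on few reads.

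**Figure D1:**
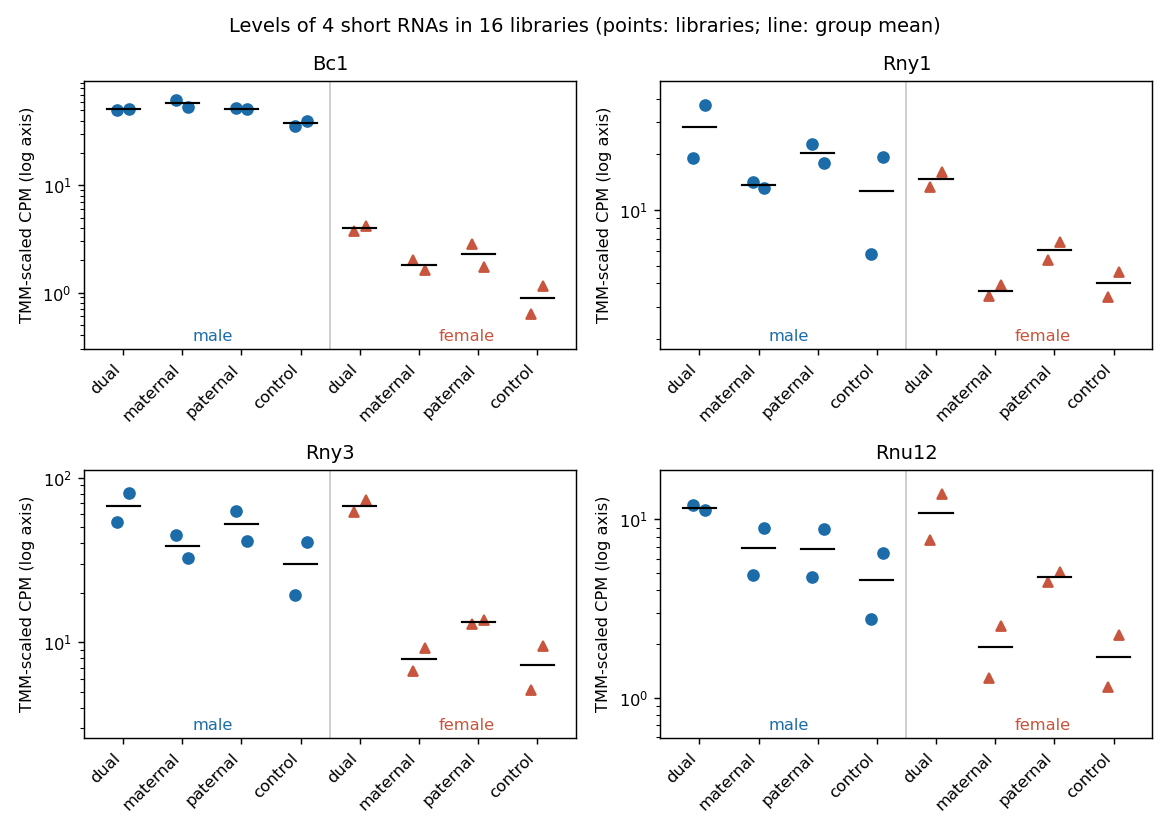
TMM-scaled CPM (log axis) of Bc1, Rny1, Rny3 and Rnu12 in each library, by sex and parental exposure; points are libraries and lines are group means of 2. Bc1 lies between 35.5 and 62.2 CPM in male libraries and between 0.633 and 4.204 CPM in female ones, while Rny3 in the female dual libraries (62.1 and 73.3 CPM) lies within the range of the male dual libraries.

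Averaged over the 4 backgrounds, Bc1 was 24.9-fold higher in male than in female libraries, a log2 difference of 4.64 ± 0.10 (SE). By that difference it ranked 22nd of 21543 genes tested, after Y-linked genes such as Ddx3y and after mt-Rnr1 (log2 difference 8.29). Within the backgrounds the log2 difference between male and female libraries was 3.67 ± 0.19 for dual, 4.99 ± 0.20 for maternal, 4.496 ± 0.20 for paternal and 5.39 ± 0.22 for control. LTO1, the protein-coding neighbour of Bc1 on the same strand, was at 15.5 to 19.7 CPM in male and 15.5 to 17.4 CPM in female libraries, a log2 difference of 0.08 ± 0.06. Across all genes 0.877% were called between male and female libraries (edgeR quasi-likelihood test, Benjamini-Hochberg adjusted p under 0.05). All 4 measured RNAs were among them, a count that the choice of members used.

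The Y RNAs were higher in male than in female libraries too, but overlapped between them. Rny3 was at 54.1 and 81.2 CPM in the male dual libraries, 44.7 and 32.4 CPM in the male maternal ones, 62.6 and 41.4 CPM in the male paternal ones, and 19.3 and 40.6 CPM in the male control ones. Female dual libraries had 62.1 and 73.3 CPM of Rny3, with 6.67 and 9.28 CPM in the female maternal ones, 12.9 and 13.7 CPM in the female paternal ones, and 5.12 and 9.54 CPM in the female control ones. The other female libraries were all below the lowest male library, while the 2 female dual libraries lay within the male range. The log2 difference between male and female libraries averaged 1.56 ± 0.16 (SE) and was −0.004 ± 0.29 within dual exposure.

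Rny1, the other Y RNA measured, was likewise highest in the dual libraries of each sex by group mean. It was at 19.1 and 36.9 CPM in the male dual libraries, 14.1 and 13.1 CPM in the male maternal ones, 22.8 and 18.0 CPM in the male paternal ones, and 5.80 and 19.4 CPM in the male control ones. Female dual libraries had 13.3 and 15.96 CPM of Rny1, with 3.41 and 3.91 CPM in the female maternal ones, 5.37 and 6.71 CPM in the female paternal ones, and 3.38 and 4.63 CPM in the female control ones. The male control libraries lay far apart, and the lower of them, replicate 1, was also the one with the least mt-Rnr1. The log2 difference between male and female libraries was 1.55 ± 0.19 (SE) over the 4 backgrounds.

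Rnu12 had the smallest difference between the sexes. It was at 12.02 and 11.2 CPM in the male dual libraries, 4.88 and 8.94 CPM in the male maternal ones, 4.76 and 8.84 CPM in the male paternal ones, and 2.76 and 6.44 CPM in the male control ones. Female dual libraries had 7.68 and 14.0 CPM of Rnu12, with 1.29 and 2.54 CPM in the female maternal ones, 4.44 and 5.08 CPM in the female paternal ones, and 1.15 and 2.26 CPM in the female control ones. In each sex both dual libraries were above all libraries of the other groups. Its log2 difference between male and female libraries was 0.98 ± 0.22 (SE), and its neighbour Poldip3, which codes for a protein, differed by −0.04 ± 0.05.

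The 2 identifiers of Rmrp, a ribozyme entry of 271 nucleotides and a lincRNA entry of 281 on chromosome 4, were both listed at 0 in all libraries. A count of 0 allows up to 3 counts, or 0.0852 to 0.196 CPM depending on the library, which covers counting error only. In the reference both identifiers overlap each other and the protein-coding gene Ccdc107 on the opposite strand, which was at 6.03 to 10.6 CPM. How reads in overlapping genes, reads that map to several places and strand were treated in counting is not stated in the sources at hand. Copies of Y RNA and spliceosomal RNA genes exist elsewhere in the genome, so the levels of Rny1, Rny3 and Rnu12 are uncertain to that extent.

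Per kilobase of transcript, the order of the RNAs differed between the sexes. In male control libraries Rny3 averaged 294 ± 148 CPM per kilobase, Bc1 225 ± 19.4, Rny1 113 ± 86.1 and Rnu12 30.5 ± 17.2 (SD, n = 2 each). In female control libraries Rny3 averaged 71.9 ± 30.6 CPM per kilobase, Rny1 35.7 ± 7.90, Rnu12 11.3 ± 5.20 and Bc1 5.33 ± 2.21 (SD, n = 2 each). Bc1 was thus second in the male and last in the female control libraries, although among the male ones the ranges of Bc1 and Rny3 overlapped. Reads from so short a transcript depend on how fragments were selected, which the files do not show.

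Counts of these RNAs were mostly even numbers. Rny1 was even in 16 of 16 libraries, Rny3 in 15, Bc1 in 13 and Rnu12 in 12. Among protein-coding genes, 52.6% of counts between 30 and 2100, and 74.8% of counts between 6 and 20, were even. A count may therefore hold both reads of a pair, which the sources used here do not state, and the number of independent fragments behind a value may be smaller than its count.

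All 4 measured RNAs were higher in dual than in control libraries of both sexes in the group means. Averaged over the sexes, the log2 fold change of dual against control was 2.19 ± 0.22 for Rny3, 2.01 ± 0.31 for Rnu12, 1.51 ± 0.27 for Rny1 and 1.29 ± 0.15 for Bc1 (SE). These correspond to 4.57-fold, 4.02-fold, 2.85-fold and 2.44-fold higher levels. Of all genes tested 3.36% were called in this comparison, and all 4 RNAs were among them, which the choice of members used. In bulk tissue, more cells of a type and more of an RNA per cell cannot be told apart.

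The difference was larger in the female than in the male libraries. In females the log2 fold change of dual against control was 3.20 ± 0.33 for Rny3, 2.66 ± 0.44 for Rnu12, 2.14 ± 0.25 for Bc1 and 1.86 ± 0.39 for Rny1, and the groups did not overlap for any of the 4. Of all genes 30.3% were likewise higher without overlap in the female libraries, and 15% were called, the 4 RNAs included in both. In males it was 1.36 ± 0.43 for Rnu12, 1.18 ± 0.31 for Rny3, 1.16 ± 0.37 for Rny1 and 0.43 ± 0.16 for Bc1, and the groups overlapped for Rny1. The other 3 were higher without overlap, as were 18% of all genes. In the male comparison 0% of genes were called, with 0 of the 4 RNAs among them. Over all genes tested, 1048 had an unadjusted p under 0.05 by edgeR. No other tool was run on the male libraries alone.

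**Figure D2:**
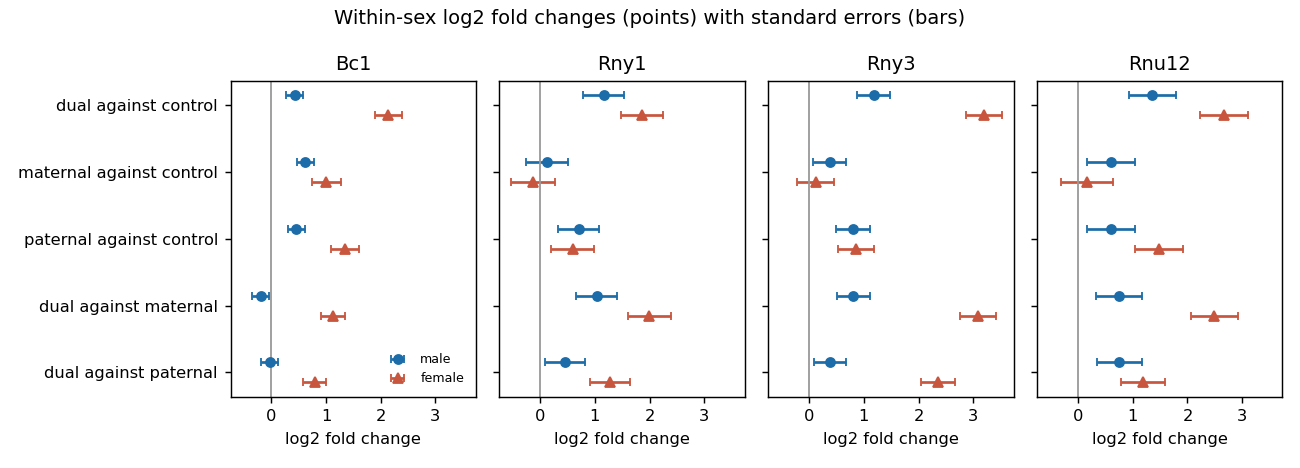
Log2 fold changes within each sex (points) with standard errors (bars) for 3 exposures against control and for dual against maternal and paternal exposure, male above female in each row. Rny3 in females reaches 3.20 for dual against control and 3.08 for dual against maternal, while Bc1 in males is at −0.19 and −0.03 in the lower rows.

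Averaged over the sexes, single exposures gave smaller values than dual exposure. Paternal against control, the log2 fold change was 1.04 ± 0.31 for Rnu12, 0.91 ± 0.15 for Bc1, 0.83 ± 0.23 for Rny3 and 0.65 ± 0.27 for Rny1 (SE). Maternal against control it was 0.81 ± 0.16 for Bc1, 0.39 ± 0.32 for Rnu12, 0.25 ± 0.23 for Rny3 and −0.001 ± 0.27 for Rny1. In both comparisons 0% of genes were called by edgeR, with 0 of the 4 RNAs among them. An unadjusted p under 0.05 was reached by 1821 genes for paternal and 817 for maternal exposure, and DESeq2 called 18 and 2 genes, each time with 1 of the 4 RNAs. In males Bc1 differed from control by 0.43 for dual, 0.62 for maternal and 0.46 for paternal exposure on the log2 scale, so dual exposure did not give the highest value. The maternal libraries were above both control libraries in each sex for 1 of the 4 RNAs, Bc1, and for 1.63% of all genes. These 3 comparisons share the same control libraries, so their values are not independent of each other.

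Dual exposure was also set against each single exposure, comparisons that share the dual libraries with those above but no control. Against maternal exposure, Rny3 was 3.85-fold higher (log2 fold change 1.95 ± 0.22 SE), Rnu12 3.08-fold (1.62 ± 0.30) and Rny1 2.85-fold (1.51 ± 0.27). Bc1 had a log2 fold change of 0.47 ± 0.14. The called genes, 5.76% of all, included 3 of the 4 RNAs, Bc1 being the exception. The same 3 RNAs were higher in dual than in maternal libraries of both sexes without overlap, as were 9.78% of all genes. For Bc1 the male dual libraries were below the male maternal ones, and the female dual libraries above the female maternal ones. The levels of the dual libraries helped choose the members, so no p is given for them here.

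Against paternal exposure, Rny3 was 2.58-fold higher (log2 fold change 1.36 ± 0.21 SE). The log2 fold change was 0.97 ± 0.29 for Rnu12, 0.86 ± 0.26 for Rny1 and 0.38 ± 0.13 for Bc1. The called genes, 8.81% of all, included 3 of the 4 RNAs, again without Bc1. DESeq2 called 2027 genes, Rny3 and Bc1 among them but neither Rny1 nor Rnu12.

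The numbers of genes called depended on the female dual libraries. Without those 2 libraries, which leaves the male ones alone, 0 of the 4 RNAs and 0 genes were called for dual against control, against maternal or against paternal. The log2 fold change of dual against maternal exposure was then 1.03 for Rny1, 0.81 for Rny3, 0.75 for Rnu12 and −0.19 for Bc1. Dual against paternal exposure it was 0.76 for Rnu12, 0.46 for Rny1, 0.38 for Rny3 and −0.03 for Bc1. With the share of TEC and sense-intronic genes as a term in the fit, none of the 3 comparisons called any of the 4 RNAs or any other gene, while most of the fold changes stayed. In that fit the log2 fold change of dual against control was 2.39 for Rny3, 1.61 for Rny1, 1.24 for Bc1 and 1.2 for Rnu12. Dual against maternal exposure it was 2.19 for Rny3, 1.64 for Rny1, 0.63 for Rnu12 and 0.42 for Bc1. Dual against paternal exposure it was 1.67 for Rny3, 1.02 for Rny1, 0.31 for Bc1 and −0.21 for Rnu12. The values of the Y RNAs were no smaller with that term, and those of Rnu12 were smaller in all 3 comparisons. The slope of the term comes from differences between the 2 libraries of a group. Its highest values, 0.872% and 0.86%, were those of the female dual libraries. The range of that group does not overlap that of the other libraries, so the fit extends the slope across the gap between them. The part of the TEC and sense-intronic share was not tested.

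Leaving out 1 library at a time, the log2 fold change of dual against maternal exposure ran from 1.752 to 2.076 for Rny3 and 1.374 to 1.903 for Rnu12. It ran from 1.206 to 1.712 for Rny1 and 0.401 to 0.538 for Bc1. Dual against paternal exposure it ran from 1.168 to 1.523 for Rny3 and 0.724 to 1.234 for Rnu12. It ran from 0.554 to 1.064 for Rny1 and 0.225 to 0.584 for Bc1. In several of these fits against paternal exposure Rny1 and Rnu12 were no longer among the called genes.

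The fold change of dual against control was smaller in male than in female libraries for all 4 RNAs. The male effect of dual exposure minus the female one was −2.02 ± 0.44 (SE) on the log2 scale for Rny3, −1.71 ± 0.30 for Bc1, −1.30 ± 0.61 for Rnu12 and −0.71 ± 0.53 for Rny1. Of all genes 3.5% were called in this difference, Rny3 and Bc1 among them. With TMM scaling 158 of the 754 called genes had a positive difference, with summed counts 0 of 1092 and with protein-coding library sizes 17 of 819. The median difference over all genes was −0.04 with TMM scaling, −0.28 with summed counts and −0.17 with protein-coding sizes. With the TEC and sense-intronic term the difference was −2.57 for Rny3, −1.60 for Bc1, −1 for Rny1 and 0.84 for Rnu12, and no gene was called.

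For Bc1 the sign of this difference depended on the scale. Dual minus control was 13.1 ± 2.38 CPM in males and 3.09 ± 0.339 CPM in females (SE, n = 2 libraries per group), larger in males, whereas the fold change was larger in females. The control level was 37.8 CPM in males and 0.895 CPM in females. For Rny3, dual minus control was 37.7 ± 17.3 CPM in males and 60.4 ± 6.02 CPM in females, larger in females on both scales. Bc1 was no longer among the called genes without male control replicate 2 or male dual replicate 2. Rny3 was not among them without male control replicate 2, male dual replicate 1, male dual replicate 2 or female dual replicate 2.

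For the single exposures the same difference was smaller in size for each of the 4 RNAs. For paternal exposure the male minus the female effect was −0.89 ± 0.31 (SE) for Bc1, −0.88 ± 0.62 for Rnu12, −0.05 ± 0.45 for Rny3 and 0.11 ± 0.55 for Rny1 on the log2 scale. For maternal exposure it was −0.39 ± 0.32 for Bc1, 0.44 ± 0.65 for Rnu12, and 0.26 for both Y RNAs, ± 0.46 for Rny3 and ± 0.56 for Rny1. In both comparisons 0% of genes, and 0 of the 4 RNAs, were called by edgeR. Genes with an unadjusted p under 0.05 numbered 2320 and 2125, and DESeq2 called 21 and 7, none of the 4 RNAs. Without female control replicate 2, Bc1 was at −1.39 for paternal exposure and among the genes called.

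Dual exposure was compared with the sum of the 2 single exposures on the log2 scale. The excess was 1.12 ± 0.31 (SE) for Rny3, 0.87 ± 0.38 for Rny1, 0.58 ± 0.43 for Rnu12 and −0.43 ± 0.21 for Bc1. Of all genes 4.21% were called by edgeR, with 0 of the 4 RNAs among them. An unadjusted p under 0.05 by edgeR was reached by 4221 of the 21543 genes tested. DESeq2 called 1182 genes and 0 of the 4 RNAs. With summed or protein-coding library sizes Rny3 was among the called genes. With the share of mt-Rnr1 as a term in the fit, Rny3 and Rny1 were both among 907 genes called. Leaving out 1 library at a time, the excess ran from 0.806 to 1.332 for Rny3 and from 0.313 to 1.175 for Rny1. For both RNAs it was lowest without male control replicate 2 and highest without male control replicate 1. Without the female dual libraries the excess of Rny3 was 0.007.

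The levels of the Y RNAs and of mt-Rnr1 moved together within each sex. Over the 8 male libraries Pearson's r between log2 levels and mt-Rnr1 was 0.94 for Rny1, 0.91 for Rny3, 0.71 for Rnu12 and 0.61 for Bc1. Over the 8 female libraries it was 0.87 for Rny1, 0.84 for Rny3, 0.85 for Rnu12 and 0.77 for Bc1. Spearman's rho for Rny1 and Rny3 was 0.98 and 0.90 in males and 0.83 for both in females. For Rnu12 and Bc1 it was 0.43 and −0.02 in males and 0.90 and 0.83 in females. Levels also ran against depth: r with the total count was −0.78 for Rny1, −0.88 for Rny3, −0.51 for Rnu12 and −0.75 for Bc1 in males, and −0.87, −0.88, −0.73 and −0.62 for the same RNAs in females. With the TEC and sense-intronic share r was −0.19 for Rny1, −0.29 for Rny3, 0.18 for Rnu12 and −0.51 for Bc1 in males, and 0.90, 0.93, 0.76 and 0.75 in females. A gene ID without a symbol held 0.165% to 16.2% of the counts of male libraries and 0.029% to 0.106% of those of female ones. With its share r was 0.97 for Rny1, 0.93 for Rny3, 0.66 for Rnu12 and 0.52 for Bc1 in males. In females the sign was the opposite, at −0.84, −0.87, −0.70 and −0.68. These are descriptions of libraries that share depth, preparation and exposure, and no p is given.

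With the share of mt-Rnr1 as a term in the fit, the log2 difference between male and female libraries was 4.45 for Bc1, −1.51 for Rny1, −0.38 for Rny3 and −0.33 for Rnu12. The slope of that term comes from differences between the 2 libraries of a group. In mt-Rnr1 these were largest between the male control libraries, at 248 and 6036 CPM. The male and female ranges of mt-Rnr1 do not overlap, so the fit extends that slope across the gap between them. In the same fit the log2 fold change of dual against control was 1.69 for Rny3, 1.68 for Rnu12, 1.23 for Bc1 and 0.76 for Rny1, and no gene was called. Dual against maternal exposure it was 1.63 for Rny3, 1.42 for Rnu12, 1.01 for Rny1 and 0.44 for Bc1, with the first 3 among 340 genes called. Dual against paternal exposure it was 1.25 for Rny3, 0.89 for Rnu12, 0.68 for Rny1 and 0.37 for Bc1, with Rny3 and Rny1 among 1474 genes called and Rnu12 not. The male minus female effect of dual exposure was −2.20 for Rny3 and −1.74 for Bc1. Both added terms were chosen after seeing the data.

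**Figure D3:**
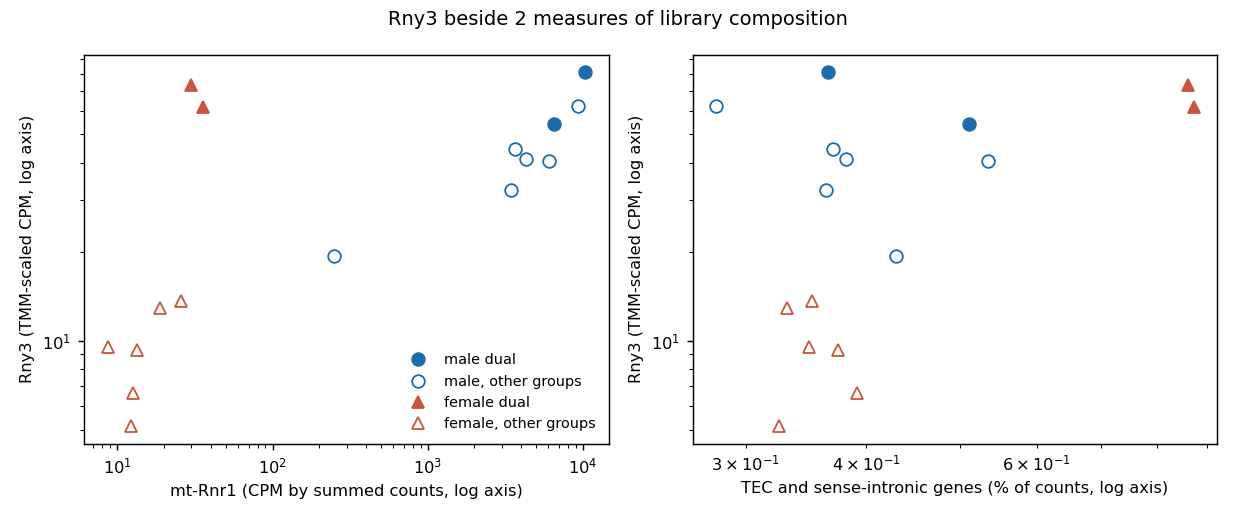
Rny3 (TMM-scaled CPM, log axis) in each library against mt-Rnr1 (CPM by summed counts, log axis; left) and against the share of counts on TEC and sense-intronic genes (percent, log axis; right). The female dual libraries have Rny3 at 62.1 and 73.3 CPM with mt-Rnr1 at only 35.4 and 29.8 CPM, and lie apart on the right at 0.872% and 0.86%.

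Rny1 and Rny3 followed each other closely. Pearson's r between their log2 levels was 0.96 over 8 male and 0.99 over 8 female libraries, and 0.94 and 0.92 without the dual libraries (n = 6 per sex). The ratio of their CPM was not constant: Rny3 was at 4.68 and 4.59 times Rny1 in the female dual libraries, 1.52 to 2.41 times in the other female libraries and 2.09 to 3.33 times in the male ones. Rnu12 followed the Y RNAs in females (r of 0.95 with Rny1 and 0.94 with Rny3) and less so in males (0.70 and 0.61). Spearman's rho for these was 0.98 and 0.98 in females and only 0.33 and 0.38 in males. Bc1 was the least alike, with r of 0.47 to 0.57 with the Y RNAs in males and 0.79 to 0.84 in females. Its rho was −0.05 with Rny1 and 0.26 with Rny3 in males, and 0.79 with both in females.

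Genes most like each RNA were taken by the smaller of the male and female Pearson's r of log2 levels, each over 8 libraries. For Rny1 they were Snord15a (0.96 male, 0.97 female), a small nucleolar RNA that guides modification of ribosomal RNA, then Rny3 and Sclt1. For Rny3 they included Rny1 and Snord15a (0.97, 0.95). For Rnu12 they were Snord17 (0.85, 0.87), another small nucleolar RNA, then Arid4a and Dbndd2. Bc1 had no gene as close: the nearest were Plin4 (0.75, 0.83), Rpl21-ps15 (0.73, 0.78) and Mdfic (0.73, 0.85).

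Other short RNAs were also higher with dual exposure in the median, but close to equal between the sexes. Among 76 other genes of short RNA classes of at most 400 nucleotides that passed the filter on low counts, the median log2 fold change of dual against control was 0.86, against 0.001 over all genes; 9 were higher and 0 lower by the edgeR test. Those 9 are 11.8% of the 76, beside 2.72% of all genes called higher. In female libraries the median was 1.46, with 15 higher (19.7%, beside 9.34% of all genes) and 0 lower, and in male libraries it was 0.34, with 0 called either way. Dual against maternal exposure the median was 0.87 with 5 higher (6.58%, beside 4.42% of all genes), and dual against paternal exposure 1.05 with 9 higher (11.8%, beside 6.65%). Between male and female libraries the median was 0.11, with 1 gene higher and values from −1.71 to 1.56, while Bc1 was at 4.64. Paternal and maternal exposure against control gave medians of −0.11 and 0.05 with 0 called. Most of these genes are predicted copies at low counts. The filter asks for about its minimum count in only 2 libraries, the size of a group. A gene at low counts can thus pass through the group where it is high. The medians and shares of the 76 may partly reflect that, and nothing is concluded from them. Among the named ones only Rpph1, Rnu73b and Rn7s6 passed the filter besides the 4 RNAs, each below 1 CPM on average.

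**Figure D4:**
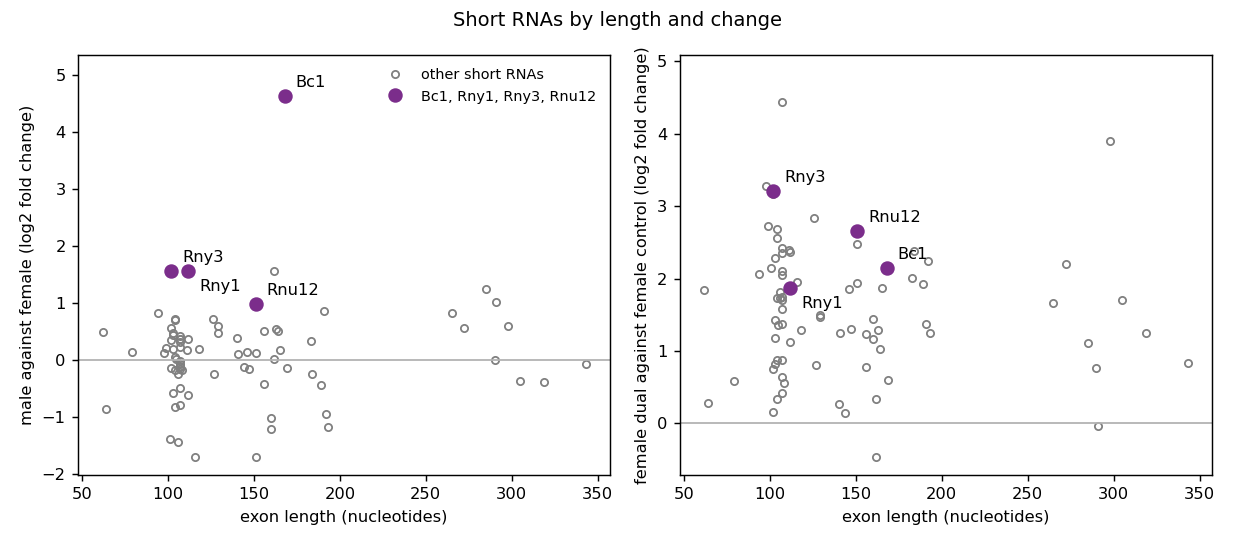
Exon length (nucleotides) against the log2 fold change of male against female libraries (left) and of female dual against female control libraries (right) for Bc1, Rny1, Rny3 and Rnu12 (filled) and 76 other short RNAs (open). On the left Bc1 stands alone at 4.64, and on the right the 4 RNAs lie between 1.86 and 3.20 among others with a median of 1.46.

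The mRNAs of the protein partners of these RNAs, and of the polymerase that makes most of them, moved by less than the RNAs themselves. Protein levels were not measured. Of 82 listed proteins 80 were tested by their mRNA, and for dual against control 3 were higher and 0 lower. That is 3.75%, beside 3.36% of all genes, and the median log2 fold change of the 80 was 0.005. All values in the next paragraph are log2 fold changes of mRNA, dual against control, with SE and edgeR adjusted p.

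Of the mRNAs of the 11 tested proteins of the minor spliceosome, 2 rose: Snrnp48 (0.39 ± 0.08, adjusted p = 0.0107) and Rnpc3 (0.40 ± 0.10, adjusted p = 0.0309), whose protein binds U12 itself. Of 30 subunits and factors of RNA polymerase III, Snapc3 rose (0.36 ± 0.06, adjusted p = 0.00479), a part of the complex that binds the promoters of small nuclear RNA genes. None of the 10 Bc1 partners passed, with Purb closest (0.14 ± 0.05, adjusted p = 0.151). None of the 10 Y RNA and La partners passed, with Celf2 closest (0.14 ± 0.06, adjusted p = 0.183). Neither did any of 11 RNase MRP and P subunits (Rpp30 0.20 ± 0.11, adjusted p = 0.334) or any of 8 proteins of the 7SK particle (Mepce −0.21 ± 0.06, adjusted p = 0.0603), which caps and holds 7SK. In male libraries Snrnp48 was at 0.10 ± 0.11, Rnpc3 at −0.04 ± 0.14 and Snapc3 at 0.14 ± 0.09, and in female libraries at 0.68 ± 0.11, 0.83 ± 0.13 and 0.57 ± 0.09. Within the female libraries alone the mRNAs of 6 of the 80 proteins were higher and of 9 lower with dual exposure, 18.8% beside 15% of all genes. RNA polymerase III and its factors had 1 higher and 6 lower. The lower ones included Maf1 (−0.52), a repressor of that polymerase. The others were its subunits or factors Snapc2 (−0.48), Crcp (−0.44), Gtf3c5 (−0.32), Polr1c (−0.30) and Gtf3c4 (−0.25). Bc1 partners had 2 higher (Fmr1 0.34 and Purb 0.23) and 1 lower (Eif4a1 −0.34), and the 7SK list 1 higher (Ccnt2 0.33) and 2 lower (Mepce −0.39 and Cdk9 −0.26). The minor spliceosome list had 2 higher and 0 lower, and the other 2 lists had 0 called. Genes named here for females only were chosen after their values were seen. Without the female dual libraries 0 of the partners were called for dual against control. That count also changed, in both directions, with the single library left out.

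**Figure D5:**
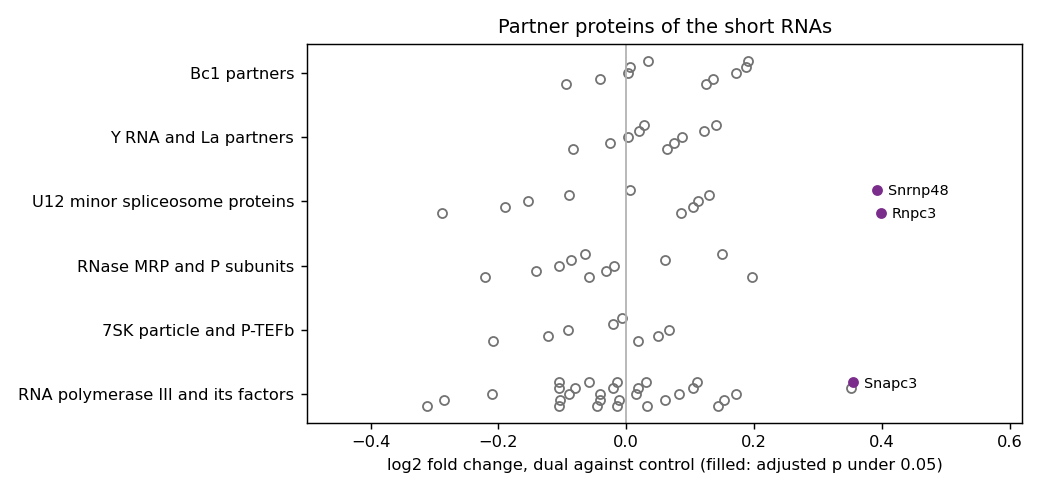
Log2 fold change of dual against control for the mRNAs of 80 proteins that bind, process or transcribe the short RNAs, by list. Filled points passed the edgeR test. The 3 that passed lie between 0.36 and 0.40, and all 80 lie between −0.31 and 0.40.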

How the data were processed

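Each library came as a deposited table of whole, unnormalised counts for 55359 gene IDs. The submitters' processing notes name Trimmomatic, STAR, featureCounts and the build GRCm39 (mm39). The sources used here do not give tool versions, the annotation, or the handling of strand and read pairs. Gene names, classes, lengths and sequences came from GENCODE M21 on GRCm38, another build, so no coordinates are given; 52083 IDs matched a symbol by ID.

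Counts were tested in R 4.3.3 with edgeR 4.0.16 by its two-sided quasi-likelihood F-test (glmQLFTest), fitting a mean for each of 8 groups over 16 libraries, with TMM scaling and 8 residual degrees of freedom. The filter filterByExpr (minimum count 10, minimum total 15) left 21543 genes, over which p-values were adjusted by Benjamini-Hochberg with a threshold of 0.05. Comparisons of exposures average both sexes with equal weight. The members, gene lists and comparisons were chosen with earlier results of these data known; tests planned for the members are therefore given as descriptions, without p. Named genes were the members, up to 4 called proteins per list or else the 1 of smallest p, and the 3 genes most like each member (log2 CPM with a prior count of 2). A gene that met this rule is not reported here.

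Replicates of every group differed by more than sampling noise (median squared difference 1.58 to 4.69 in units of counting error, against 0.455 for noise alone). Alternatives were DESeq2 1.42.0, other library scalings, no filter, a replicate block, leaving out each library or both female dual libraries, and 2 terms for library composition chosen after seeing the data.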

Additional observations from a re-analysis of the deposited data

Results flagged for a closer look

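The male minus the female effect of dual exposure was −1.71 on the log2 scale for Bc1 and −2.02 for Rny3, and both were among the genes called by the edgeR test of that difference. The members were chosen with these levels in view, so that test is not independent of the choice. The fold change of dual against control was smaller in male than in female libraries. Depth, mt-Rnr1 and the TEC and sense-intronic share also differed between these libraries. With the TEC and sense-intronic term the values were −1.60 for Bc1 and −2.57 for Rny3, with 0 genes called. With the mt-Rnr1 term they were −1.74 and −2.20, with both among 716 genes called.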

How the results depend on the processing

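Results that moved are grouped by setting. DESeq2 called 1 of the 4 RNAs among 18 genes for paternal and 1 among 2 genes for maternal exposure against control. Without the filter on low counts 4 were called among 321 genes for paternal and 1 among 79 for maternal exposure. For non-additivity it was 2 among 1808. Fold changes of the RNAs stayed near those with the filter (Rny3 dual against control 2.18 without and 2.19 with it, log2). The edgeR adjusted p-values of the called RNAs were far smaller, from the same 2 libraries per group, so nothing is read from these calls. Non-additivity called 1 among 772 genes by summed counts and 1 among 916 by protein-coding counts. Without the female dual libraries 0 RNAs were called for dual against control, against paternal and against maternal, and 0 partner mRNAs for dual against control. Bc1 then reversed to −0.029 (dual against paternal) and −0.19 (dual against maternal). With the mt-Rnr1 term 0 RNAs and 0 partners were called for dual against control. It called 2 RNAs among 907 genes for non-additivity and 1 among 8 genes for male against female. In the latter, where the slope is extended across the gap between the sexes, Rny1 reversed to −1.507, Rny3 to −0.381 and Rnu12 to −0.326. With the TEC and sense-intronic term 0 RNAs were called for dual against control, paternal and maternal and for the sex difference of dual exposure, and 0 partners. The Y RNA fold changes of dual exposure were no smaller, in a fit that extends its slope across a gap to the female dual group (given above). Rnu12 reversed to −0.206 (dual against paternal), −0.772 (non-additivity) and 0.837 (sex difference of dual exposure). The sex difference of paternal exposure for Rny1, 0.11 in the fit used, was −0.005 by summed counts, −0.128 with the mt-Rnr1 term and −0.002 with the TEC term. The cause of these moves was not tested.

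Leaving out 1 library at a time, the number of RNAs called ran from 0 to 2 for paternal, 0 to 1 for maternal and 4 to 4 for dual exposure against control, 1 to 4 for dual against paternal, 3 to 4 for dual against maternal, 0 to 2 for non-additivity, 3 to 4 for male against female, and 0 to 1, 0 to 0 and 0 to 2 for the sex differences of paternal, maternal and dual exposure; partners called ran from 0 to 13. Where an arm kept 1 library, that library was assumed to vary like the others. For paternal exposure the sex difference ran from −0.516 to 1.22 for Rny1 and −0.565 to 0.572 for Rny3; for maternal exposure from −0.373 to 1.362 for Rny1, −0.255 to 0.881 for Rny3 and −0.124 to 1.157 for Rnu12; for dual exposure from −1.328 to 0.402 for Rny1.

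Replicate numbers did not pair the libraries: over 28 pairs of groups, deviations of same-numbered libraries correlated at −0.14 to 0.18, with 1 over 0.1. With the replicate block the RNAs called were 0, 0 and 4 for paternal, maternal and dual exposure against control, among 0, 0 and 727 genes. They were 3 and 3 for dual against paternal and maternal (1848 and 1227 genes) and 0 for non-additivity (933 genes). The sex differences had 0, 0 and 2 (0, 0 and 775 genes) and male against female had 4 (186 genes). For dual against control 4 partners were called. Summed counts without TMM moved the median of all genes to −0.281, −0.174 and −0.117 for the sex differences of dual and paternal exposure and for male against female, and called 1115 genes in the last, 6.55% of them higher, against 189 and 46% with TMM. Protein-coding counts moved it to −0.165 and −0.101 for the sex differences. With no filter 1345, 1808, 1542 and 603 genes were called for dual against control, non-additivity, the sex difference of dual exposure and male against female, against 723, 907, 754 and 189 with it; DESeq2 called 310 for male against female. Female Bc1 counts of 21 to 118 limit the precision of its fold changes.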
